A study of Sus scrofa with 40 samples.

Results

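Gene expression in the backfat of freely fed pigs was compared between lines with low and high residual feed intake (RFI). RFI is the feed a pig eats beyond what its growth and maintenance predict, so low RFI pigs are the efficient ones. The comparison takes the 5 arrays titled as fat of low RFI pigs fed ad libitum and the 5 titled as fat of high RFI pigs fed ad libitum, which are 10 of the 40 arrays of the series. All pigs were prepubertal Yorkshire gilts, 6 months old and heterozygous for a variant of MC4R per the labels, and both groups here ate freely for 8 days. The tissue was the middle layer of subcutaneous fat over the tenth rib. The other groups set beside this comparison are 5 low and 5 high RFI gilts fed at 80% of maintenance for 8 days (backfat), and 5 low and 5 high RFI gilts fed ad libitum (liver). The labels do not say how the pigs of a line were related or which liver and fat arrays came from the same pig, so p-values measure the spread between these pigs. In the main limma fit that spread also comes from the restricted pigs.

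Subcutaneous fat stores energy as triglyceride, which adipocytes build from fatty acids made in the cell or taken from the blood, and release again through lipases. It also secretes hormones such as leptin and adiponectin, and it holds macrophages, vessels and a fibroblast-rich stroma beside the adipocytes. Backfat lies close to skeletal muscle, whose contractile genes adipocytes do not express. In whole tissue, fewer cells of a type and less RNA per cell cannot be told apart.

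The main adipocyte genes were bright on every array of both groups. Adiponectin (ADIPOQ) read 22244 to 32522 in low and 18513 to 27822 in high RFI pigs, and FABP4, the fatty acid carrier of adipocytes, 20554 to 23074 and 16368 to 22940. The other markers ranged from bright to dim, and LPL, for example, read 14278 or more in every pig. The lowest single reading was 102 in low RFI pigs, for leptin (LEP) in pig 1, and 98.6 in high RFI pigs. Both are below the array medians of 157 to 180. The mean log2 intensity of 17 adipocyte markers was 11.57, 11.52, 11.61, 11.35 and 11.72 in high RFI pigs 1 to 5 and 11.44, 11.10, 11.59, 11.48 and 11.53 in low RFI pigs. The groups overlap, and the difference of -0.12 had an exact permutation p = 0.286 (two-sided, 252 arrangements, smallest possible p = 0.00794). By gene, 10 of the 17 had a positive fitted difference and 7 a negative one, with a median of 0.042 and the lowest, -1.52, for LEP.

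Skeletal muscle signal differed widely between pigs and more within the low RFI group than between the groups. The mean log2 intensity of 28 skeletal muscle markers was 5.99, 5.61, 8.42, 8.56 and 7.24 in high RFI pigs 1 to 5. It was 6.42, 11.15, 11.31, 11.52 and 5.48 in low RFI pigs 1 to 5. Low RFI pigs 2, 3 and 4 are far above every high RFI pig, while low RFI pigs 1 and 5 lie among the lowest values of either group. The low RFI mean was 9.18 ± 2.97 (SD, n = 5) and the high RFI mean 7.16 ± 1.35 (SD, n = 5), a difference of 2.01 with an exact permutation p = 0.183 (two-sided). The summed intensity of the 28 markers ranged from 13573 to 157570 in low RFI pigs and from 17808 to 26458 in high RFI pigs, and no marker was listed at 0 on any of these arrays. ATP2A1, the calcium pump of fast muscle fibres, read 40.9, 316, 1033, 1364 and 39.5 in low RFI pigs and 4.98, 3.07, 204, 121 and 20.1 in high RFI pigs. Its fitted difference of 3.30 ± 1.41 (SE, log2) did not pass the test (limma adjusted p = 0.9998). Of the 28 markers, 26 had a positive fitted difference and 2 a negative one, with a median of 2.24, and 0 passed the test.

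**Figure D1:**
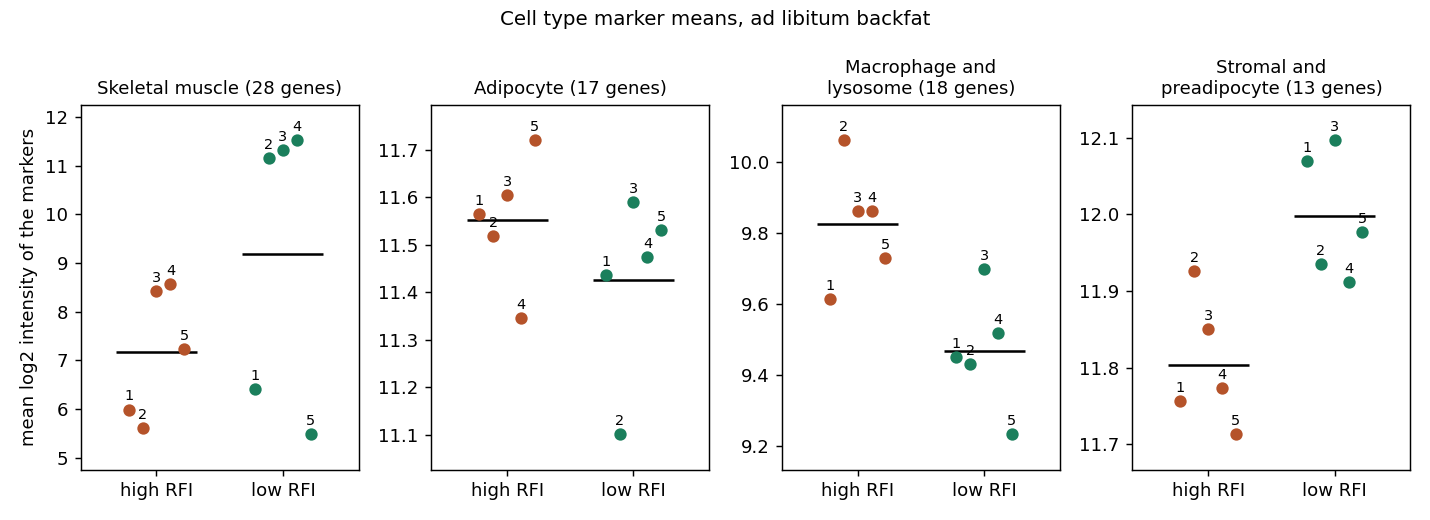
Mean log2 intensity of 4 marker lists on each ad libitum backfat array (points, numbered by replicate, n = 5 per group; the line is the group mean; each panel has its own vertical scale). Low RFI pigs 2, 3 and 4 stand above all high RFI pigs in muscle signal, while the adipocyte means of both groups overlap.

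Few probe sets differed between the lines. A probe set (the short probes that read 1 transcript together) was tested where it exceeded the 40th percentile of its array on at least 5 of the 20 backfat arrays, and was called at a limma p below 0.05 after Benjamini-Hochberg adjustment. Of 15498 probe sets tested, 2 were called (0.0129%), 1 higher and 1 lower in low RFI pigs, and 591 (3.81%) had an unadjusted p under 0.05. The 5 arrays of a line did not overlap with those of the other in 96 probe sets (0.619%), 44 higher and 52 lower in low RFI pigs. Under random labels, 5 against 5 arrays separate fully in either direction with a probability of 0.00794, which is above the share seen. The share with an unadjusted p under 0.05 was likewise below 0.05. A lack of overlap in a single gene is therefore a description only. The median standard error of a difference was 0.196 on the log2 scale, and 89.5% of probe sets had a 95% interval lying wholly within a doubling or halving.

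TMEM254, a small transmembrane protein, was lower in low RFI pigs. Its probe set Ssc.8441.1.A1_at read 729.7, 734, 859.6, 781 and 745 in low RFI pigs 1 to 5, and 1327, 1342, 1255, 1638 and 1437 in high RFI pigs 1 to 5. Every low RFI pig is below every high RFI pig, with a wide gap between the groups. The log2 difference was -0.86 ± 0.13 (SE), a level 1.81-fold lower (limma adjusted p = 0.0222). It was -0.87 in pigs numbered 1 and 2 and -0.85 in those numbered 3 to 5. In restricted backfat TMEM254 also did not overlap between the lines, at 510.3 to 730.4 in low and 744 to 1185 in high RFI pigs, with a difference of -0.62 (limma adjusted p = 0.391). In ad libitum liver the lines did not separate, at 852 to 1417 in low and 872 to 1368 in high RFI pigs, with a difference of 0.0037.

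The unnamed probe set Ssc.11310.1.A1_at was higher in low RFI pigs. It read 4479, 5257, 5276, 1188 and 3329 in low RFI pigs 1 to 5 and 717, 546, 578, 266 and 518 in high RFI pigs 1 to 5. The groups do not overlap, and number 4 is the lowest pig of either line. The log2 difference was 2.79 ± 0.44 (SE), a level 6.91-fold higher (limma adjusted p = 0.0222). In restricted backfat the groups overlap, at 2037 to 4709 in low and 523 to 3173 in high RFI pigs, with a difference of 0.92 (limma adjusted p = 0.998). The restricted high RFI pigs were thus spread between the levels of both ad libitum groups. The difference between the diets, 1.87, had an unadjusted p = 0.00678 and did not pass after adjustment. In ad libitum liver, where the probe set is dim, it read 60.6 to 173 in low and 17.3 to 89.5 in high RFI pigs, a difference of 1.52 (limma adjusted p = 0.312).

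Both differences kept their size when muscle signal was taken into account, and both calls were lost. With the muscle marker mean as a covariate, TMEM254 differed by -0.87 and Ssc.11310.1.A1_at by 2.79, each with a limma adjusted p = 0.0678, and 0 of 15498 probe sets were called (530 had an unadjusted p under 0.05). On the 11 backfat arrays with a muscle mean below 9, which keep 2 low and 5 high RFI ad libitum pigs, the differences were -0.92 and 2.95, each with a limma adjusted p = 0.186. With the replicate number as a block, only TMEM254 of the 2 was called (limma adjusted p = 0.00522), and Ssc.11310.1.A1_at had an adjusted p = 0.0615. Leaving out any of high RFI pigs 2, 4 and 5 or low RFI pigs 1 and 5 left 0 calls, and leaving out low RFI pig 2 left 1, another unnamed probe set. Over the 10 ad libitum pigs left out in turn the difference ranged from -0.90 to -0.80 for TMEM254, called 4 times, and from 2.56 to 3.17 for Ssc.11310.1.A1_at, called 3 times.

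**Figure D2:**
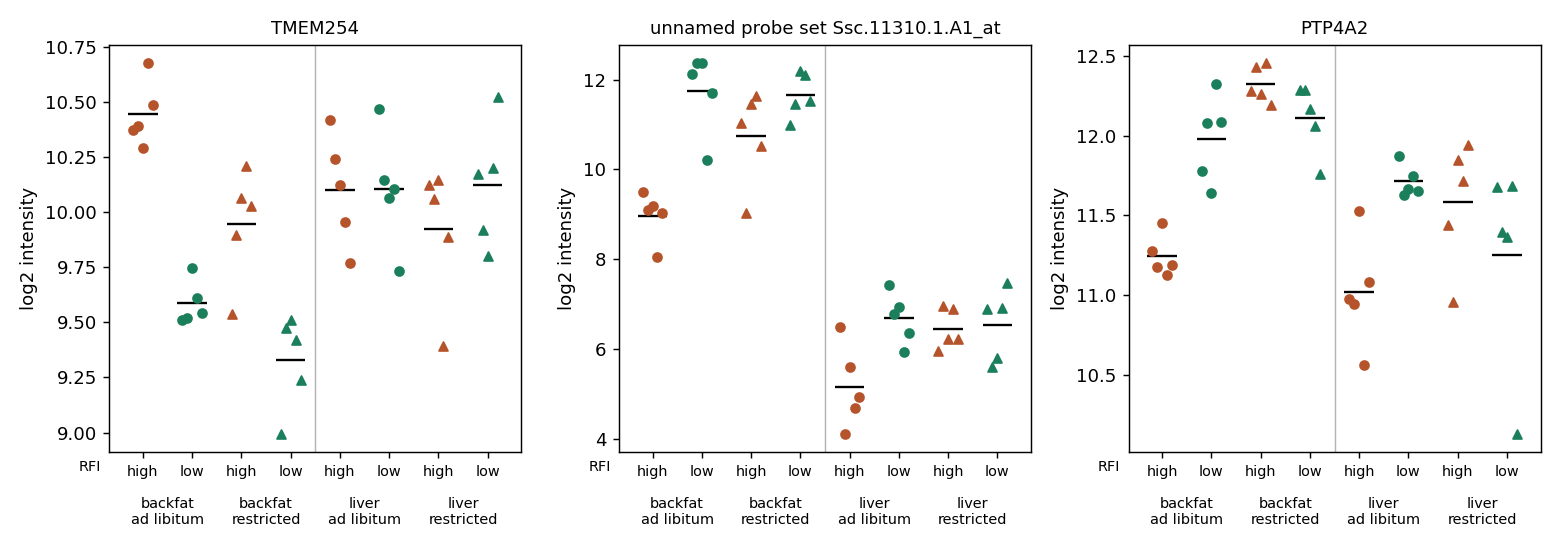
Log2 intensity of TMEM254, of the unnamed probe set Ssc.11310.1.A1_at and of PTP4A2 on each array of the 8 groups (circles ad libitum, triangles restricted, green low RFI, brown high RFI, the line is the group mean, n = 5). In ad libitum backfat the lines do not overlap in any of the 3 panels, and in restricted backfat they do not overlap for TMEM254.

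PTP4A2, a tyrosine phosphatase anchored to membranes by a lipid tail, came next and missed the threshold. It read 3509, 4324, 3191, 5138 and 4354 in low RFI pigs and 2479, 2309.7, 2798, 2237 and 2330.0 in high RFI pigs (limma adjusted p = 0.0509, log2 difference 0.74 ± 0.13 SE). The groups do not overlap. Under restriction the high RFI pigs read 4677 to 5620 and the low RFI pigs 3465 to 5009, a difference of -0.21. The line difference was higher by 0.95 under ad libitum feeding than under restriction, and this did not pass the test (limma adjusted p = 0.514). In ad libitum liver the lines did not overlap either, at 3158 to 3756 in low and 1511 to 2950 in high RFI pigs, a difference of 0.70 (limma adjusted p = 0.277). Another 2 PTP4A2 probe sets in backfat differed by -0.016 and 0.098.

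The next 10 genes were ranked by the p of each gene's brightest probe set, and none passed the test (limma adjusted p from 0.736 to 0.880). A dimmer probe set of AKR1CL1, described further on, had a smaller p than these. CALR, the calcium-binding chaperone of the endoplasmic reticulum, read 434, 347, 333, 427 and 335 in low RFI pigs and 1045, 419, 1088, 1749 and 1588 in high RFI pigs. High RFI pig 2 lies inside the low RFI range, and the other 4 high RFI pigs are well above it. The log2 difference was -1.51 ± 0.38 (SE), and in ad libitum liver it was -1.97 (limma adjusted p = 0.188). Of the other 21 endoplasmic reticulum chaperones tested, 10 had a positive and 11 a negative difference, with a median of -0.039 against 0.0015 over all probe sets. A dimmer probe set of HSP90B1, a further chaperone of this compartment, was lower in low RFI pigs without overlap (-0.23), and its brightest one differed by -0.059.

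PINK1, the kinase that marks damaged mitochondria for removal, read 2952, 3446, 4903, 4409 and 3829.6 in low RFI pigs and 5335, 6576, 5029, 7279 and 8257 in high RFI pigs, without overlap (-0.73 ± 0.20, SE). In ad libitum liver PINK1 read 2192 to 2934 in low and 3163 to 4087 in high RFI pigs. The liver difference was -0.51 (limma adjusted p = 0.640). MMD, a membrane protein first described in maturing monocytes and macrophages, read 127 to 199 in low and 220.4 to 795 in high RFI pigs, without overlap (-1.45 ± 0.40, SE). TK2, the thymidine kinase of mitochondria, read 108 to 154 in low and 151 to 226 in high RFI pigs (-0.53 ± 0.15, SE). C7H6orf89 read 346, 736, 454, 532 and 357 in low and 577, 781, 831, 909.9 and 935 in high RFI pigs, with low RFI pig 2 among the high RFI values (-0.77 ± 0.19, SE). Its other 3 tested probe sets differed by -0.13 to -0.59, and its difference in ad libitum liver was -0.87 (limma adjusted p = 0.333).

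TCEA3, a transcription elongation factor, read 511 to 1023 in low and 303 to 581 in high RFI pigs (0.91 ± 0.22, SE), and a second, dimmer TCEA3 probe set differed by 1.04 without overlap. TMEM38B, a potassium channel of the endoplasmic reticulum, read 184 to 245 in low and 96.3 to 191 in high RFI pigs, where high RFI pig 3 alone lay in the low RFI range (0.79 ± 0.19, SE). PEBP4 read 411 to 932 in low and 236 to 451 in high RFI pigs (0.92 ± 0.25, SE), and BIVM 1117 to 1878 and 602 to 1191 (0.63 ± 0.17, SE). MSS51, a mitochondrial gene of skeletal muscle, read 272 to 457 in low and 151 to 266 in high RFI pigs, without overlap. Its difference of 0.72 was 0.54 with the muscle covariate and 0.34 on the arrays with little muscle signal, and its deviations correlated at 0.656 with the muscle mean over the 20 backfat arrays, which share the libraries.

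The genes that make and store fat showed no difference between the lines that passed the test. FASN, the fatty acid synthase, read 13271 to 22631 in low and 12721 to 22763 in high RFI pigs, and its difference of 0.064 had a 95% interval from -0.72 to 0.85. SCD, the stearoyl-CoA desaturase, differed by 0.16 (-0.90 to 1.21), and ACACA, the acetyl-CoA carboxylase, by -0.26 (-1.12 to 0.60). ACSS2 and PGD, which supply acetyl-CoA and NADPH, differed by -0.27 and -0.14. Of 13 fatty acid synthesis genes tested, 6 had a positive and 7 a negative difference, with a median of -0.022. That median was -0.34 in pigs numbered 1 and 2 and 0.24 in those numbered 3 to 5. In triglyceride synthesis, AGPAT3, which adds the second fatty acid, read 491 to 739 in low and 704 to 1005 in high RFI pigs (-0.51 ± 0.15, SE, limma adjusted p = 0.942), and GPAM, which adds the first, differed by 0.21. A further AGPAT3 probe set differed by -0.11. Of the 16 genes of this list, 6 were positive and 10 negative, with a median of -0.063.

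In lipid uptake and release no gene passed the test either. LPL, the lipase that frees fatty acids from blood lipoproteins, read 15803 to 18037 in low and 14278 to 19238 in high RFI pigs, and its difference of 0.042 had a 95% interval from -0.22 to 0.31. PNPLA2, which starts triglyceride breakdown, differed by 0.26 (-0.19 to 0.71), LIPE, the hormone-sensitive lipase, by -0.048 (-0.64 to 0.54), and MGLL, which removes the last fatty acid, by -0.34 (-0.80 to 0.12). PNPLA3, a relative of PNPLA2, read 91.4, 302, 392, 501 and 444 in low RFI pigs and 704, 2116, 169.5, 1059 and 769 in high RFI pigs. High RFI pig 3 lies inside the low RFI range, and the difference of -1.28 ± 0.54 (SE) did not pass (limma adjusted p = 0.9998). It was -2.88 in pigs numbered 1 and 2 and -0.22 in those numbered 3 to 5. CPT1A, the entry step of mitochondrial fatty acid oxidation, differed by 0.26 (-0.18 to 0.70). PCK1, which makes phosphoenolpyruvate for glycerol synthesis, ranged from 476 to 8627 in low and from 312 to 5348 in high RFI pigs (-0.75, 95% interval -2.16 to 0.67). The sign of the PCK1 difference was not stable, at 0.25 in pigs numbered 1 and 2, -1.41 in those numbered 3 to 5 and 0.079 on the arrays with little muscle signal, and it ranged from -1.47 to -0.38 when 1 ad libitum array was left out.

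Leptin, the hormone that reports fat stores to the brain, had the widest difference of the adipocyte genes and did not pass the test. LEP read 102, 349, 1141, 905 and 1207 in low RFI pigs and 1141, 1956, 1019, 2114 and 1754 in high RFI pigs. Low RFI pigs 1 and 2 are far below the rest, and low RFI pigs 3 and 5 lie inside the high RFI range. The log2 difference was -1.52 ± 0.57 (SE, limma adjusted p = 0.9998), and a second LEP probe set gave -1.41. The difference was -2.99 in pigs numbered 1 and 2 and -0.53 in those numbered 3 to 5. Under restriction it was -1.22. PPARG, the master regulator of adipocyte genes, read 4002, 5166.5, 4629, 3781 and 4771 in low RFI pigs and 6472, 6174, 5284, 5175 and 5628 in high RFI pigs. The groups do not overlap by a narrow margin, and the difference of -0.37 ± 0.19 (SE) did not pass (limma adjusted p = 0.9998). Its unadjusted limma p was 0.0657 in this fit and 0.00835 with the 10 ad libitum arrays alone. It did not pass there either (limma adjusted p = 0.930). ADIPOQ, adiponectin, differed by 0.13 (95% interval -0.15 to 0.40), AGT, angiotensinogen, by 0.16 (-0.10 to 0.41), and IGF1 by 0.013 (-0.49 to 0.52).

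**Figure D3:**
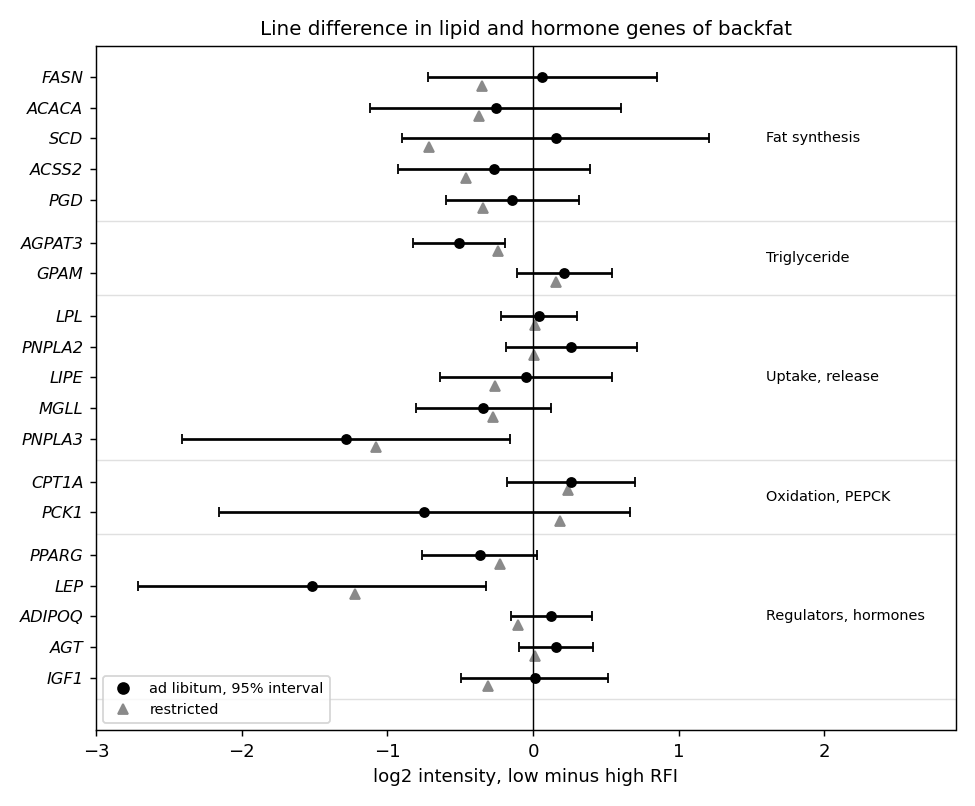
Fitted log2 difference, low minus high RFI, for 19 lipid and hormone genes in ad libitum backfat (circles, with 95% intervals from the limma fit) and in restricted backfat (triangles). The intervals of AGPAT3, PNPLA3 and LEP lie below 0 before adjustment, and those of the other genes include 0.

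Macrophage genes were lower in low RFI pigs as measured values, and none passed the test. Of 18 macrophage and lysosome markers, 2 had a positive and 16 a negative difference, with a median of -0.35, against 50.4% positive and a median of 0.0015 over all probe sets. The summed intensity of the list was 29351 to 31648 in low RFI pigs and 32246 to 39786 in high RFI pigs, without overlap, while the mean of the log2 values overlapped (9.23 to 9.70 and 9.62 to 10.06). Between pigs of the same number that mean was lower in the low RFI pig in all 5 pairs, with differences of -0.164, -0.63, -0.163, -0.341 and -0.495 for numbers 1 to 5. Only low RFI pig 3 (9.70) lay above a high RFI pig, pig 1 (9.62). Any pairing that keeps these 2 apart gives the same count. CTSS, a lysosomal protease of antigen-presenting cells, read 2291 to 3161 in low and 3143 to 4348 in high RFI pigs (-0.41 ± 0.16, SE, limma adjusted p = 0.9998). LAPTM5, a lysosomal protein of blood cells, differed by -0.37 and the complement subunits C1QA and C1QC by -0.75 and -0.63. The list's median was -0.33 with the muscle covariate, -0.35 and -0.34 in pigs numbered 1 and 2 and in those numbered 3 to 5, and 0.057 in restricted backfat. Of 9 T and NK cell markers, 7 were negative, with a median of -0.38.

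Stromal genes lay on the other side. Of 13 stromal and preadipocyte markers, 12 had a positive difference, with a median of 0.16 and 0 calls. COL1A2, a chain of type I collagen, differed by 0.83 ± 0.43 (SE), decorin (DCN) by 0.15 and THY1 by 0.24, while COL3A1 differed by -0.24. The summed intensity of the 13 genes was 76068 to 89313 in low and 69653 to 77615 in high RFI pigs, which overlap. Their mean log2 value was higher in the low RFI pig in all 5 pairs of the same number, by 0.009 to 0.312. Only low RFI pig 4 (11.91) lay below a high RFI pig, pig 2 (11.93). Any pairing that keeps these 2 apart gives the same count. Of 42 extracellular matrix genes, which include some of these, 34 were positive, with a median of 0.15. The stromal median was 0.14 with the muscle covariate and 0.12 in restricted backfat.

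Genes of the translation machinery differed little per gene. Of 58 cytosolic ribosomal proteins 56 had a positive difference, from -0.21 for RPL26 to 0.22 for RPL13, with a median of 0.13 and 0 calls. After quantile normalization the median was 0.028. It was -0.10 in pigs numbered 1 and 2 and 0.27 in those numbered 3 to 5, so the sign is not shared by the 2 sets of numbers. Of 28 translation factors 22 were positive, with a median of 0.096. Of 59 oxidative phosphorylation subunits 29 were positive, with a median of -0.0026. With the muscle covariate 16 of the 59 were positive (median -0.034), and the median was -0.12 on the arrays with little muscle signal. It was -0.23 in pigs numbered 1 and 2 and 0.13 in those numbered 3 to 5.

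**Figure D4:**
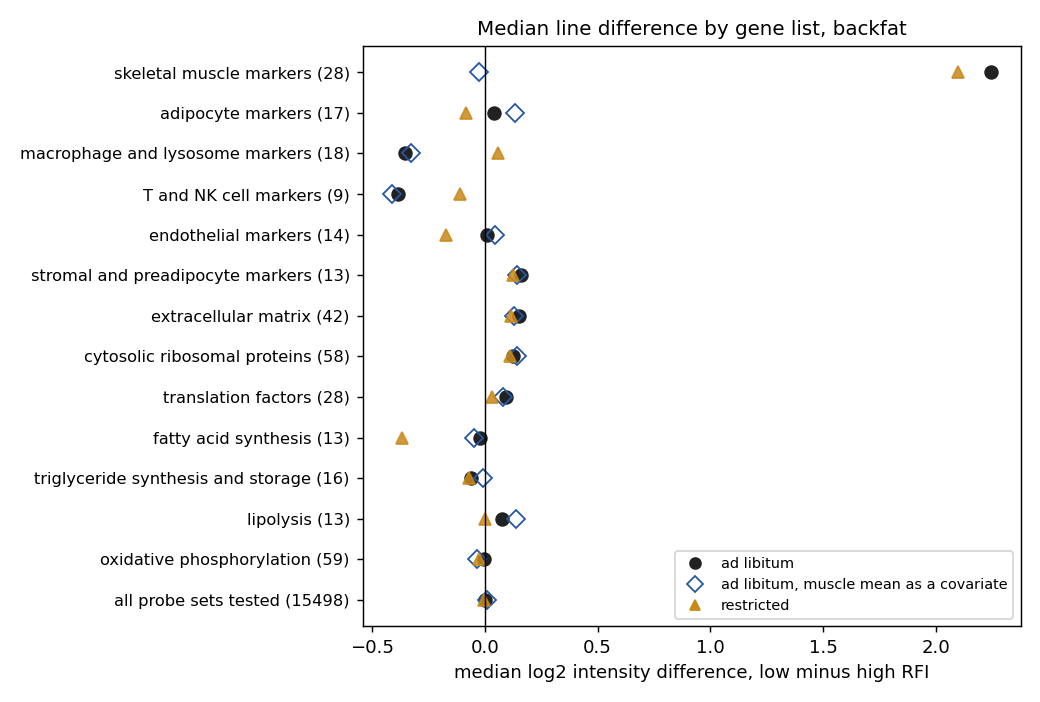
Median log2 difference, low minus high RFI, over the tested genes of 13 lists and over all probe sets (number tested in brackets), in ad libitum backfat (circles), with the muscle marker mean as a covariate (diamonds) and in restricted backfat (triangles). The muscle median of 2.24 is -0.026 with the covariate, which is the mean of these same markers, so a value near 0 follows from the fit. The macrophage and stromal medians were -0.35 and 0.16, and -0.33 and 0.14 with the covariate. In restricted backfat they were 0.057 and 0.12.

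Muscle signal moved with many of the largest fitted differences toward higher levels in low RFI pigs. A fitted difference above 2-fold was reached by 194 probe sets (1.25%), 138 higher and 56 lower in low RFI pigs. Of the 138, 88 (63.8%) had a correlation above 0.5 with the muscle mean over the 20 backfat arrays (deviations from group means), against 1.72% of all probe sets. Of the 56 lower ones, 1 (1.79%) had a correlation below -0.5, against 1.08% of all probe sets, and 2 had one above 0.5. With the muscle covariate, 47 of the 138 and 45 of the 56 were still beyond 2-fold. On the arrays with little muscle signal it was 43 and 40. The muscle markers, which had a median of 2.24, had a median of -0.026 with the covariate and -1.25 on those arrays. The covariate is the mean of these same markers, so their value near 0 with it follows from the fit. The arrays with little muscle signal were also chosen by that mean.

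**Figure D5:**
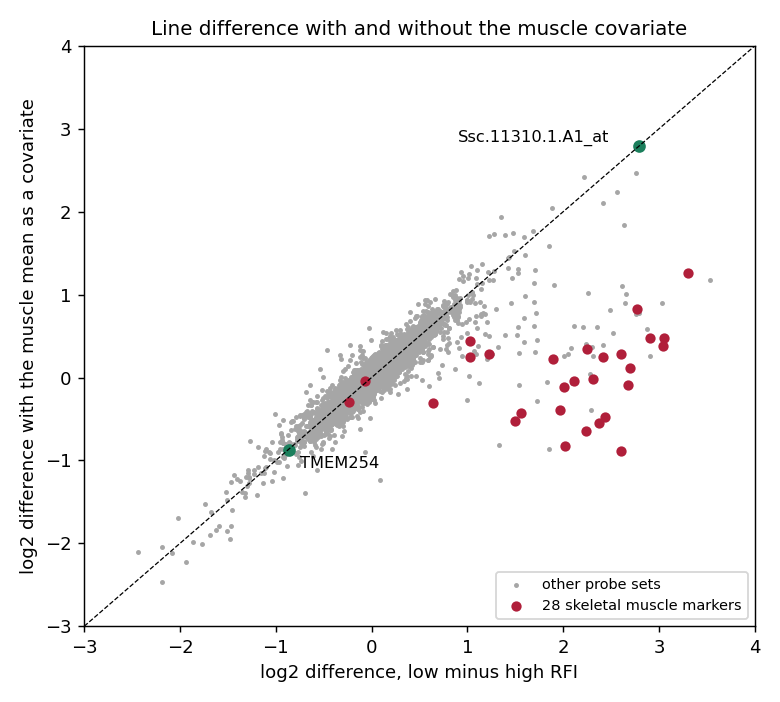
Fitted log2 difference of each of the 15498 probe sets in ad libitum backfat (horizontal) against the same difference with the muscle marker mean as a covariate (vertical); the dashed line marks equal values. The muscle markers (red), whose mean is the covariate, lie below the line, while TMEM254 and Ssc.11310.1.A1_at lie on it.

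The restricted pigs, which share no array with the ad libitum ones, were set beside them to see which line differences recur. No probe set was called there (0%, 747 with an unadjusted limma p under 0.05). Of the 96 probe sets without overlap in ad libitum backfat, 75 (78.1%) had the same sign under restriction, against 61.6% of all probe sets tested. In 6 of the 96 (6.25%) the lines also did not overlap under restriction, in the same direction, against 84 of all 15498 (0.542%) that were separated there with the sign of their ad libitum difference. The 6 are TMEM254 and 5 others, which are described here after their values were seen. GPM6B, a membrane proteolipid, read 1484 to 2296 in low and 2501 to 3409 in high RFI pigs fed ad libitum and 1027 to 2024 and 2067 to 2641 under restriction, differences of -0.53 and -0.69. Its other 2 probe sets in ad libitum backfat both differed by -0.55. CD47, the surface protein that restrains engulfment by macrophages, read 1716 to 2242 in low and 1217 to 1678 in high RFI pigs fed ad libitum, a difference of 0.32, and differed by 0.44 under restriction. Another 2 CD47 probe sets differed by 0.21 and 0.077. A dim RACK1 probe set read 54.0 to 123 in low and 139 to 341 in high RFI pigs (-1.23), whereas the bright RACK1 probe set, for the same scaffold protein of the ribosome, differed by 0.15. The unnamed probe sets Ssc.4287.1.S1_at and Ssc.9306.1.A1_at differed by 0.50 and -0.47. None of these 5 passed the test in ad libitum backfat (unadjusted limma p from 0.00236 to 0.00935).

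AKR1CL1, an aldo-keto reductase, was called only when the 10 ad libitum arrays were fitted without the restricted ones, and is named here after its values were seen. Its probe set Ssc.11840.1.A1_at read 273, 339, 296, 316 and 338 in low RFI pigs and 1933, 995, 898, 1558 and 688 in high RFI pigs. The low RFI pigs lie close together and below every high RFI pig. The difference was -1.86 ± 0.43 (SE), with a limma adjusted p = 0.736 over the 20 backfat arrays and 0.0314 over the 10, and it was -0.51 under restriction. The other 2 AKR1CL1 probe sets differed by -0.93 and -0.48.

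Whether the line difference depended on diet or tissue was tested directly. No probe set passed for diet (0% of 15498, 244 with an unadjusted limma p under 0.05, smallest adjusted p = 0.514) or for tissue (0% of 14001 measured in both, 347 unadjusted, smallest adjusted p = 0.966). In ad libitum liver 1 probe set was called between the lines (0.00714%), that of PON3, an antioxidant lactonase, which was lower in low RFI pigs, with a log2 difference of -2.41 (limma adjusted p = 0.0338). Of the 82 probe sets without overlap in ad libitum backfat that were also tested in liver, 50 (61.0%) had the same sign in ad libitum liver, against 57.3% of all. Liver and fat arrays of a group may come from the same pigs.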

How the data were processed

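Each sample is a 1-colour Affymetrix porcine array. Per the file, the authors deposited 1 linear intensity value for each probe set, already scaled to a trimmed mean of 500.09 to 500.15 per array; the tools affy and MAS5 are named per the submitters' processing notes, with no version or role. The array median was 157 to 180 on the ad libitum backfat arrays, and the number of arrays limits the precision. Of 24123 probe sets, 124 controls were left out. The platform annotation gave 1 symbol to 10069 and several to 198, while 13732 are unnamed. Presence calls were not used here.

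Intensities were log2-transformed with no offset. The 20 backfat arrays entered 1 model with a mean per group, fitted with limma 3.58.1 in R 4.3.3 (eBayes with an intensity trend), so the restricted arrays add to the estimate of spread; the comparison of tissues used all 40 arrays. Marker means were compared by exact permutation, two-sided. Same-numbered low and high RFI arrays deviated together (correlations 0.192 to 0.328, all 5 pairs). Some arrays of unlike number did too, at 0.263 for low RFI pig 1 with high RFI pig 2. It was 0.198 for low RFI pig 4 with high RFI pig 5, and others were negative, down to -0.337. Pairing by number entered only the replicate block and the differences given within pairs. The main fit and the permutation tests treated the lines as unpaired. The labels do not say what a number marks. Genes were named by a rule: those called, the next 12 in all by p, the leading members of 7 lists, 12 fixed metabolic genes and unnamed probe sets among the 4 smallest p. The comparison, the 45 gene lists and the tests were chosen with earlier results of these data known. A gene in a list is represented by its brightest probe set. The fit was tested on simulated data. Tables and plots used Python 3.11.15, pandas 2.3.3, numpy 2.4.6 and matplotlib 3.10.9.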

Additional observations from a re-analysis of the deposited data

Results flagged for a closer look

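Among 84 groups of 5 checked (36 probe sets and 6 array measures in both lines), 2 held an array far from the other 4, and chance alone flags about 1 in 20. PCK1 read 8627.1 in low RFI pig 1, and its gap to the next value took 0.773 of the group's range on the log2 scale. ADIPOQ read 32522 in low RFI pig 5, with a gap of 0.755 of the range.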

How the results depend on the processing

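The count of 2 called probe sets was 3 after quantile normalization, with a filter at the 60th percentile and with the 10 ad libitum arrays alone, and 2 with no filter, an offset, no intensity trend, or numbers 1 and 2 against 3 to 5 as a block. It was 1 with the replicate block and 1 with numbers 1 and 2 alone (DDX39B, which is not among the 2). It was 2 with numbers 3 to 5 alone, again other probe sets. It was 0 with the muscle marker mean as a covariate and 0 on arrays with a muscle mean below 9, an alternative added after the data were seen. Leaving out 1 backfat array at a time gave 0 to 3. With the covariate the count of 0 became 0 to 2 when an array was left out. The count for diet and that for tissue, both 0, were each 1 with numbers 3 to 5 alone, an unnamed probe set in both cases, and 0 in every fit without 1 array. The muscle marker difference was 1.43 to 2.94 and the adipocyte difference -0.18 to -0.043 without 1 array. The replicate block changed no other call. The planned fit on arrays within 1 log2 of the median muscle and liver signal gave no value, since 0 of its 4 arrays were low RFI pigs fed ad libitum. The causes were not tested. With 5 pigs per line the median half-width of a 95% interval was 0.408 on the log2 scale. That is before adjustment, and a call needed more: PTP4A2, at 0.74 ± 0.13 (SE), missed the threshold.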

Other observations

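Mitochondrial ribosomal proteins lay on the other side of 0 from the cytosolic ones, with 35 of 56 negative and a median of -0.047, and 0 were called. The cytosolic median was -0.10 in pigs numbered 1 and 2, so the side on which it lies is not stable. Of 15 detoxification and steroid enzymes, 11 were negative with a median of -0.12, from -1.16 for CYP2A19 to 0.53 for CYP27A1, and 0 were called. With the muscle covariate 7 of the 15 were positive and the median was -0.028, and on arrays with a muscle mean below 9 it was 0.049. The mean of 9 hepatocyte markers was 7.20 to 8.08 in low and 7.28 to 8.15 in high RFI ad libitum backfat, and 12.56 in restricted low RFI pig 5, which enters the fit through the spread. Without that pig, 3 probe sets were called in place of 2. The median 3' to 5' log2 ratio of the actin control probe sets was 1.82 in low and 1.81 in high RFI pigs. Pigs numbered 1 and 2 read 1.92 and 2.09 in the low and 2.63 and 2.12 in the high RFI line. Those numbered 3 to 5 lay at or below 1.82 and 1.81. The ratio of the GAPDH controls did not split by number in that way. Whether this bears on the differences between these 2 sets of numbers was not tested.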
